A study of Heliocidaris erythrogramma with 7 samples.

Results

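A set of 148 genes of *Heliocidaris erythrogramma* (*He*) was described whose RNA level stood higher in the library made at 12 hours post-fertilization (hpf) than in those made at 9 and 20 hpf. The level is CPM, the UMIs (unique molecular identifiers, one for each captured RNA molecule) of a feature per 1000000 UMIs of all cells of a library. Each of the 4765 features with at least 200 UMIs at 12 hpf, of 38707 in the files, was ranked by the log2 ratio of its level at 12 hpf to the higher of its levels at 9 and 20 hpf, after adding 5 CPM to each. This ratio is called the pulse below. The first 150 were taken, and *scl* (rank 15) and *emx* (rank 53) were left out, as was to be *pks1*, which stood at rank 3730. The levels at 9, 12 and 20 hpf therefore chose the genes and are given as a description.

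*He* is an Australian sea urchin with a non-feeding, yolk-rich larva, and its embryos and larvae were dissociated, fixed in methanol and profiled by droplet single-cell RNA-seq with 3′ tags to follow when its cell fates arise. There was 1 library for each of the 7 time points 6, 9, 12, 16, 20, 24 and 30 hpf, with no treatment or mutant, and the labels name neither the parents nor the number of embryos. With 1 library per time point no difference between times could be tested, and batch and age cannot be told apart. The intervals below are exact 95% intervals that cover counting error only. The libraries held 486 to 5346 cells and 936734 to 10769034 UMIs after filtering, with medians of 1273 to 2581 UMIs per cell, and the 16 hpf library was the smallest by far. Of 23093 distinct barcodes 63 occurred in more than 1 library, with at most 11 for any pair.

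At the blastula stage a sea urchin embryo is divided into territories, each with its own set of transcription factors. In other sea urchins, mesoderm that forms pigment cells and blastocoelar (immune) cells arises beside the endoderm at the vegetal side, and neural fates arise at the animal pole. Scl is a basic helix-loop-helix factor of blood and blastocoelar cells, FoxA a forkhead factor of the endoderm, Hbn a homeodomain factor of the animal pole, Emx a homeodomain factor, and Pks1 the polyketide synthase needed for echinochrome, the pigment of pigment cells.

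The pulse of the 148 genes ran from 0.87 to 2.97 with a median of 1.06, beside a median of -0.33 over all ranked features. They had 201 to 69941 UMIs at 12 hpf, with a median of 1139. Of these features 118 had a gene name, including 11 named only as hypothetical proteins, and 30 had only an identifier. The last genes inside the limit were *Ext1*, *Ccdc151* and *Rab6ip1l*, with pulses of 0.87, 0.87 and 0.87, and the first outside were a *Thap2* feature, *Cyp2L5* and HER_28778.t1, with 0.86 each. The limit thus cuts through a continuous range. Of the 148 genes 83 remained in the first 150 when 16 hpf took the place of 20 hpf, and 89 when 12 hpf was set against all other time points.

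*GataC* (HER_38449.t1), a GATA-family factor of mesoderm, ranked first. Its level was 0, 1.11, 451, 146, 53.4, 37.3 and 35.1 CPM in the libraries of 6, 9, 12, 16, 20, 24 and 30 hpf. The interval at 12 hpf was 437 to 466 CPM from 3667 UMIs, against 12 UMIs at 9 hpf. *GataC* was thus nearly absent from the 9 hpf library and remained at low levels to 30 hpf. *Adra1bL_1*, named after an adrenergic receptor, was second, with 0, 2.51, 103, 41.6, 11.1, 3.34 and 7.50 CPM at the 7 time points in order. *Gdpd5L2*, named after a glycerophosphodiester phosphodiesterase, followed, with 1.05, 4.27, 46.5, 7.47, 6.46, 14.1 and 21.3 CPM, so that its level at 30 hpf was again above that at 20 hpf. *Syne1*, which codes for a protein that ties the nuclear envelope to the cytoskeleton, came next, with 23.7, 58.2, 297, 85.4, 62.95, 35.7 and 28.6 CPM.

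**Figure D1:**
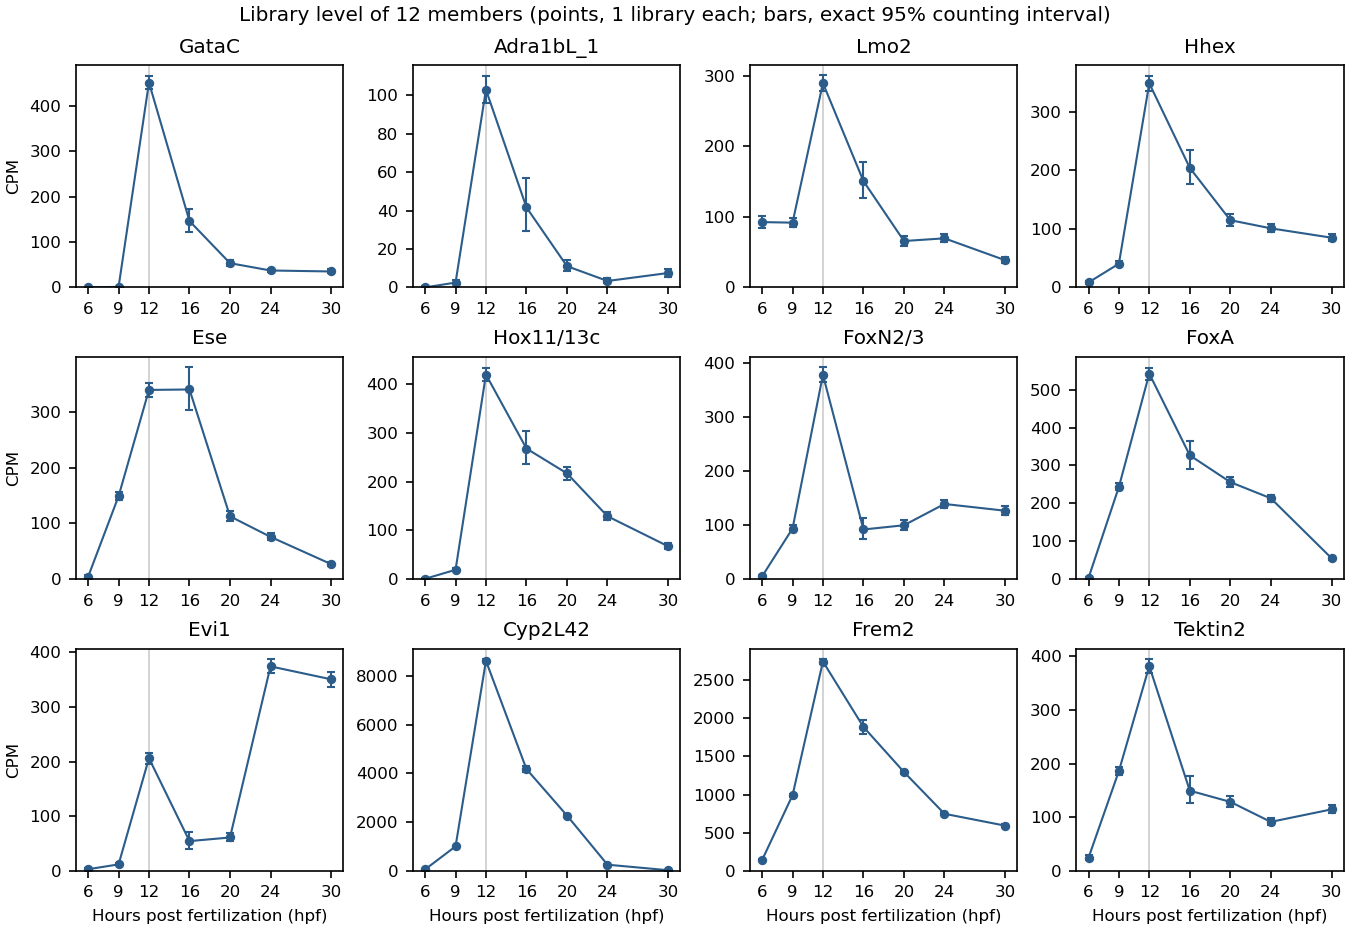
Level (CPM, linear axis from 0, a scale of its own in each panel) of 12 of the 148 genes against hours post-fertilization. Points are single libraries and bars exact 95% counting intervals. *GataC* peaks at 451 CPM, *Ese* is as high at 16 hpf (341) as at 12 hpf (340), and *Evi1* comes back to 375 CPM at 24 hpf.

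The times that the rule did not use showed how sharp the pulse was. The median level of the 148 genes was 10.2, 45.3, 140, 75.8, 62.0, 44.7 and 38.5 CPM in order of age. Over all ranked features the median stayed between 57.7 and 71.5 CPM. Together the genes held 0.558%, 5.22% and 1.23% of all UMIs at 6, 12 and 30 hpf. At 12 hpf 139 of 148 had their highest level of the 7 libraries, where 20.7% of all ranked features did, a share that the rule itself raises. At 6 hpf 115 were at least 4-fold below their level at 12 hpf (19.1% of ranked features) and 74 were below 10 CPM (14.4%). At 16 hpf 141 were below 12 hpf (56.8%), 124 of them between the levels at 12 and 20 hpf (31.5%). At 30 hpf 55 were at least 4-fold below 12 hpf (6.78%). All of these counts share the 12 hpf level with the rule, so they describe the shape of the time course and are no independent check of it.

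Only 2 of the 148 genes were higher at 24 or 30 hpf than at 12 hpf, where 38.8% of ranked features were. *Evi1*, a zinc finger factor, had 2.98, 11.8, 206, 54.4, 61.1, 375 and 351 CPM from 6 to 30 hpf. *Cyp27L*, a cytochrome P450, had 20.5, 8.82, 59.6, 50.2, 16.9, 358 and 184.6 CPM. Both thus had a first peak at 12 hpf and a second, higher one at 24 hpf. With *Gdpd5L2* they were the 3 genes at least 2-fold higher at 24 or 30 hpf than at 20 hpf (2.5% of ranked features).

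To find which cells carried these RNAs, the 4706 cells of the 12 hpf library were sorted by their UMIs for *scl*, *foxa*, *emx* and *hbn*. A cell belonged to a class when it held at least 1 UMI of 1 marker and none of the other 3. This gave 557 *scl* cells, 649 *foxa* cells, 752 *emx* cells and 784 *hbn* cells, with median depths of 1667, 1481, 1837 and 1667.5 UMIs. A further 703 cells held several markers, among which overlap of *scl* and *foxa* was the commonest (295 cells), and 1261 held none. Of the 557 *scl* cells 212 fell in the cluster with most *scl* and 201 in that with *mif4* and *pks1*, in clusters made without the 148 genes, and 73 fell in a cluster of low depth (median 604 UMIs). Of the 752 *emx* cells 417 fell in an *emx* cluster and 89 in *foxa* clusters. In the main *hbn* cluster (median 1743 UMIs) 4.49% of the cells held a *scl* UMI, beside 100% and 90.9% in the pair of *scl* clusters (medians 1909 and 1878 UMIs). The rule used only library totals, but these also depend on the share of each kind of cell. Cells with a *scl* UMI were 3.05%, 20.6% and 13.3% of the cells at 9, 12 and 20 hpf. The values were 7.86%, 23.1% and 9.32% for *emx*, 23.6%, 21.6% and 14.7% for *foxa*, and 35.5%, 23.7% and 24.6% for *hbn*. The spread of the genes over the 12 hpf cells is thus not independent of the rule.

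The classes carried further markers of their territories. The *scl* cells had *mif4* at 7713 CPM and *pks1* at 523, both markers of pigment cells, and at most 37.3 and 2.94 CPM of these were found in the other 3 classes. The *foxa* cells had *wnt1* at 517 CPM and *hox11/13b* at 1459. The *hbn* cells had *six3* at 1216 CPM and *foxq2-1* at 1088. The *emx* cells were less distinct: of 6 larval ectoderm markers *univin* (2568 CPM), *nodal* (183) and *gsc* (145) were higher in them than in the other 3 classes, but cells with none of the 4 markers had similar levels (2224, 204 and 127 CPM). *Soxb2* was at 1138 CPM in *emx* and 1081 in *hbn* cells, *tbx2/3* was higher in *hbn* cells (88.6 against 20.8 CPM), and *foxabl* was at 0. Skeletal markers were nearly absent, with *sm50* and *sm37* at 0 in the *scl* cells and *alx1* at 20.0 CPM. Posterior ectoderm markers summed to between 4.47 and 16.7 CPM. Of the pigment markers *fmo* was at 0 in *scl* cells.

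A gene was assigned to a class when its level there, after adding 5 CPM, was at least 2-fold that of each other class. The *scl* cells took 42 of the 148 genes (28.4%), where 6.15% of all ranked features were assigned to them. The *foxa* cells took 4 genes (background 2.04%), among them *FoxA* itself, which the sorting fixed. The *emx* cells took 2 (0.378%) and the *hbn* cells 2 (0.923%). A gene high in a pair of classes was grouped with that pair, a grouping added after the values were seen: 8 genes were shared by *scl* and *foxa* cells (1.47%) and 16 by *emx* and *hbn* cells (5.29%). Another 32 differed by less than 2-fold between the highest and the lowest class (57.7%), and 42 had graded levels (26.1%). The counts of the small classes depended on the settings. With clusters in place of marker UMIs the *foxa*, *emx* and *hbn* classes had 2, 0 and 1 genes. The *scl* class then had 42 genes, 40 of them the same, but it was the cluster with most *scl* alone (361 cells). The cluster with *mif4* and *pks1*, which held 201 of the 557 *scl* cells, entered no class.

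**Figure D2:**
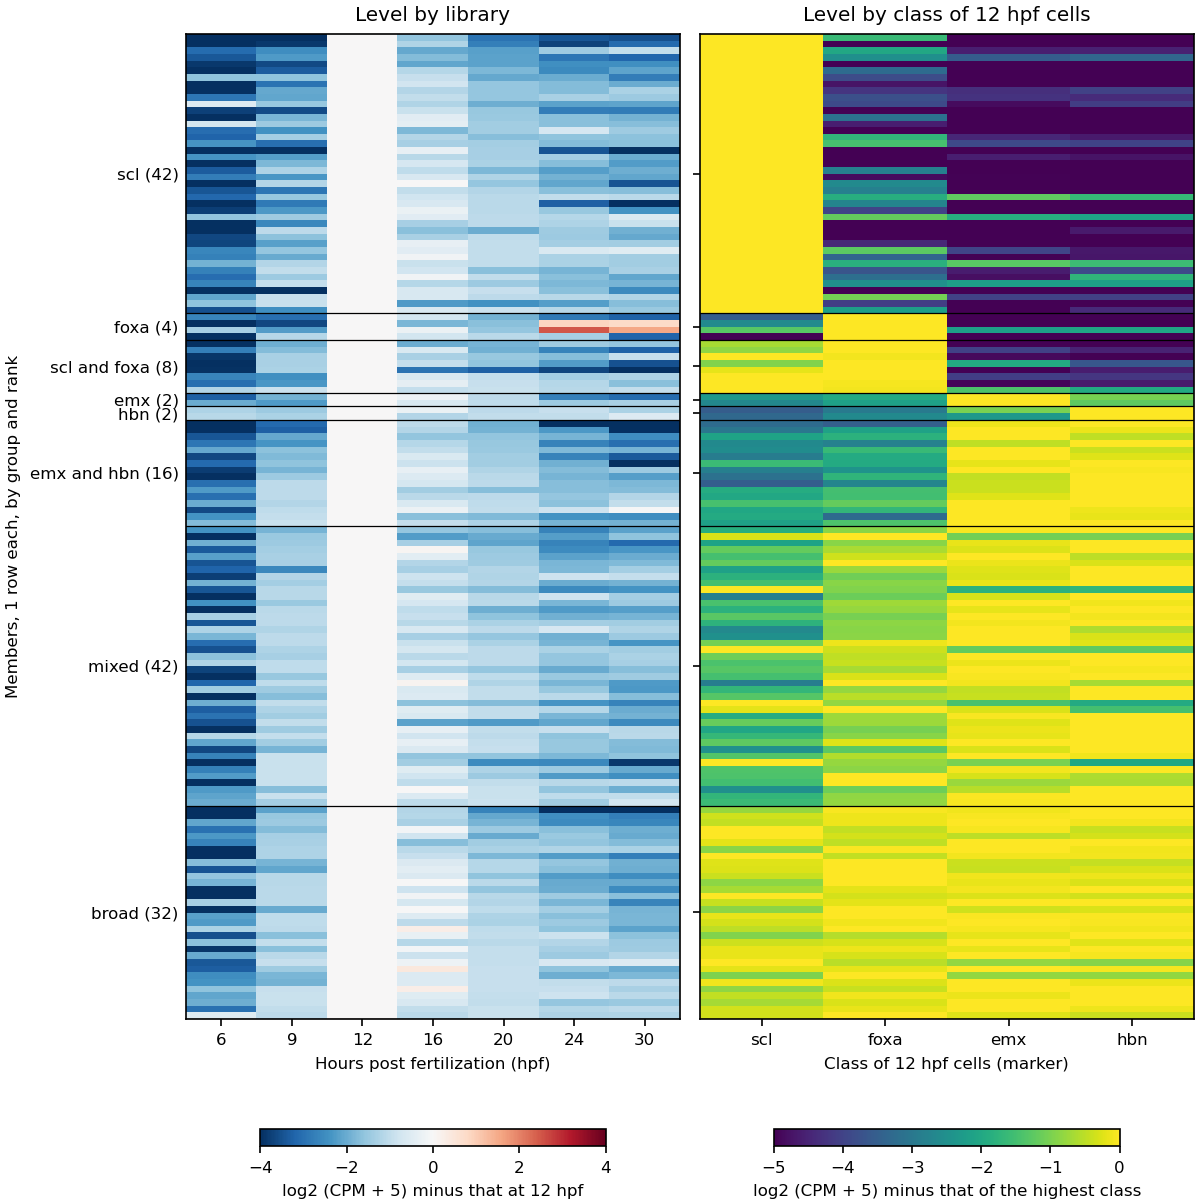
Left, log2 of (CPM + 5) of each of the 148 genes in 7 libraries minus that at 12 hpf. Right, log2 of (CPM + 5) in the 4 classes of 12 hpf cells minus that of the highest class, with 1 row per gene, grouped by class. The 42 genes of the *scl* class are dark in the *emx* and *hbn* columns, and red at 24 and 30 hpf marks *Evi1* and *Cyp27L*.

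The 42 genes of the *scl* class had a median of 405 CPM in *scl* cells, 35.3 in *foxa* cells, 3.47 in *emx* cells and 4.47 in *hbn* cells. All cells with any *scl* UMI were 20.6% of the cells and 21.9% of the UMIs of the library, and they held a median of 87.0% of the UMIs of these 42 genes. In clusters of the same cells made without any of the 148 genes, all 42 were highest in 1 of 2 clusters out of 11. For 17 this was a cluster of 361 cells with *scl* at 32987 CPM, and for 25 a cluster of 265 cells with *mif4* at 14115, *scl* at 5232 and *pks1* at 1127 CPM. Both had similar depth, with medians of 1909 and 1878 UMIs. The 42 genes were chosen for high levels in *scl* cells of this library, and *scl* itself was not left out of the clusters. Their share in *scl* cells and their highest clusters were thus largely fixed by the choice. The same values over all ranked features were not counted.

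Regulators of transcription formed 1 group of this class. *GataC* was at 1633 CPM in *scl* cells, 533 in *foxa* cells, 2.08 in *emx* cells and 4.47 in *hbn* cells, a ratio of *scl* to *foxa* cells of 3.06 (2.78 to 3.38). *Lmo2*, which in vertebrates bridges Scl and GATA factors in blood progenitors, was at 1352, 89.3, 15.3 and 24.6 CPM in the same order. *Hhex*, a homeodomain factor, was at 1834, 63.8, 3.47 and 11.9 CPM. *GataC* thus had its second-highest level in *foxa* cells, while *Lmo2* and *Hhex* were 15.1-fold (12.2 to 18.9) and 28.7-fold (22.4 to 37.4) higher in *scl* than in *foxa* cells. *Ese*, an Ets-family factor, was at 1477 CPM in *scl* and 238 in *foxa* cells. *Hox11/13c*, a posterior Hox factor, was at 2673 CPM in *scl* cells against 19.6, 4.86 and 2.23 CPM in *foxa*, *emx* and *hbn* cells.

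Their levels over time differed in detail. *Lmo2* was at 92.4 CPM already at 6 hpf and 91.6 at 9 hpf, then at 289, 151, 65.7, 69.5 and 38.4 CPM from 12 to 30 hpf. *Hhex* had 8.42, 40.4, 348, 204, 115, 101 and 84.7 CPM. *Ese* had 4.56, 149, 340, 341, 113, 75.9 and 26.8 CPM, so that 12 and 16 hpf could not be told apart by its counts. *Hox11/13c* had 0.702, 19.1, 420, 268, 217, 129 and 67.2 CPM, and its pulse of 0.94 was set by 20 hpf, the higher of both neighbours.

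Of a list of 25 ranked mesoderm regulators, 6 (24.0%) were among the 148 genes, where 3.11% of all ranked features were: *GataC*, *FoxN2/3*, *Lmo2*, *Hhex*, *Ese* and *Hox11/13c*. The list was chosen with earlier results of these data known. Its median pulse was 0.39, and 17 of its 25 genes had a pulse above 0, which 29.8% of ranked features had. *Hox11/13c*, which also marks pigment cells, was counted here as a regulator. None of 10 other ranked pigment genes (enzymes and *mif* features), 9 animal pole regulators, 70 ribosomal protein features (median pulse -1.22) or 41 immune genes was in the set. For endoderm regulators the count was 1 of 10, the member being *FoxA*.

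Genes named after receptors and receptor kinases were also found in the *scl* class. Both features named *Tie1/2*, after the receptor tyrosine kinases of blood vessels in vertebrates, were in it. The first (HER_7300.t1) was at 502 CPM in *scl* cells and 53.0 in *foxa* cells, and the second (HER_7301.t1) at 182 and 12.8 CPM. They share a name, and reads that fit both could not be separated here. Of a list of 40 ranked receptor and kinase features 4 (10.0%) were among the 148 genes, where 3.11% of all ranked features were. These were *Adra1bL_1*, *Adrb2L_20*, *Gpr54L_3* and *Gpr27L*, and the list members did not include *Tie1/2*. Of the 40 features 13 had a pulse above 0, which 29.8% of ranked features had. The median pulse of the list was -0.22, against -0.33 over all ranked features. Among the 148 genes 7 were named after G protein-coupled receptors, a family picked after the values were seen, and 5 of these were in the *scl* class; the share among all ranked receptor features was not counted. *Adra1bL_1* was at 671 CPM in *scl* cells, 2.94 in *foxa* cells, 1.39 in *emx* cells and at 0 in *hbn* cells, where the limit of 3 counts over the class puts it at least 300.6-fold lower than in *scl* cells. *Surreal/Gpcr109* was at 396 and 37.3 CPM in *scl* and *foxa* cells, and *Gpr27L* at 534 and 19.6 CPM. *Lrr/Gpcr* and *Gpr54L_3* made up the 5, with 225 and 195 CPM in *scl* cells. The remaining 2 were *Adrb2L_20*, which belonged to the pair of *emx* and *hbn* cells, and *Adora2b_1*, which was at 30.4 to 37.5 CPM in all classes.

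Enzymes and transporters of the class covered several pathways. *Odc1*, the ornithine decarboxylase that makes putrescine, was at 249 CPM in *scl* cells and at most 5.55 CPM elsewhere. *Acly_2*, an ATP citrate lyase that supplies acetyl-CoA for lipid synthesis, was at 828 CPM against at most 12.8 CPM. *Slc27a6*, a fatty acid transporter, was at 462 CPM against at most 5.89 CPM. The 3 genes were thus at low levels in each class other than *scl* cells. The ABC transporters *Abcg11* and *Abcg12* were at 635 and 350 CPM in *scl* cells and at 9.81 and 17.7 CPM in *foxa* cells. *Mfsd4*, of the major facilitator family, was at 2338 CPM against 111 to 140 CPM in the other classes. The galactosyltransferase genes *B3galt1_9* and *B4galt6_5* were at 371 and 334 CPM in *scl* cells, with 2.94 and 43.2 CPM in *foxa* cells. *Col18a1Lf*, named after collagen XVIII, was at 370 CPM in *scl* and 131 in *foxa* cells.

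The *scl* class was not uniform. Of its 557 cells 189 held a *pks1* UMI (median depth 1925 UMIs) and 368 held none (1530.5 UMIs). Of the 42 genes 18 were at least 2-fold higher in the cells with *pks1*, 3 were at least 2-fold higher in those without, and 21 were neither. Among all 293 ranked features of the *scl* class the shares were 52.6% and 7.17%, so the 42.9% of the 42 genes that were higher with *pks1* lay below the share of the class as a whole. Over all ranked features they were 4.89% and 13.5%.

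*Odc1* was at 502 CPM (432 to 579) in *scl* cells with *pks1* and 86.4 CPM (64.1 to 114) in those without, a ratio of 5.81. *Hox11/13c* was at 5071 (4845 to 5304) and 1130 (1045 to 1220) CPM, and *Adra1bL_1* at 1290 and 273 CPM. *Abcg11*, *Acly_2* and *Mfsd4* were 5.34, 4.25 and 3.33 times as high with *pks1*. The receptor gene *Gpr54L_3* was 3.51 times as high, while the fatty acid transporter *Slc27a6* was just under the limit with 5 CPM added. On the other side were *GataC*, with 566 CPM (492 to 648) with and 2320 CPM (2198 to 2448) without *pks1*, *Ese* with 700 and 1978 CPM, and *Dixdc1L* with 137 and 307 CPM. *Hhex*, *Lmo2*, *Col* and the first *Tie1/2* feature differed by less than 2-fold. The ratios were 0.852 (0.771 to 0.940) for *Hhex* and 0.801 (0.712 to 0.900) for *Lmo2*, both lower with *pks1*. For *Col* and *Tie1/2* they were 0.928 (0.815 to 1.05) and 1.06 (0.879 to 1.28).

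**Figure D3:**
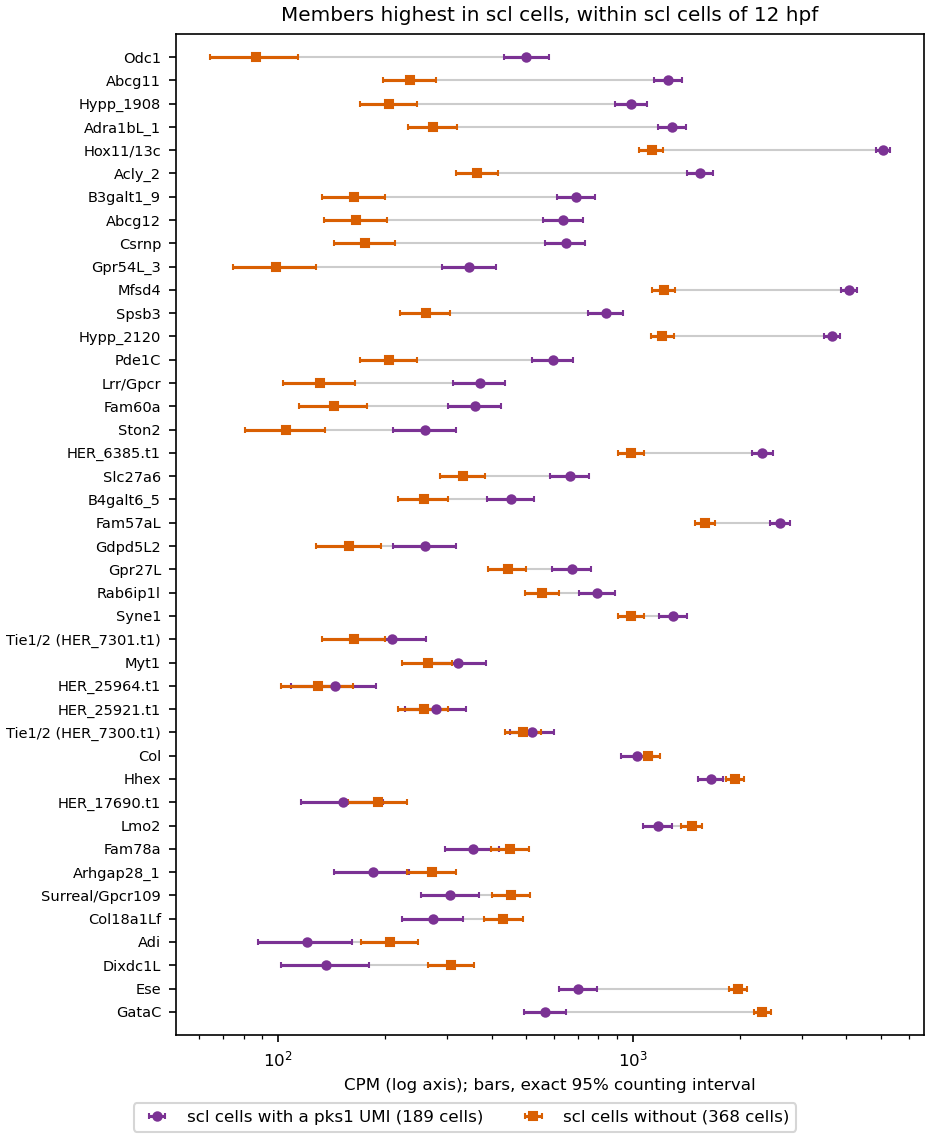
Level (CPM, log axis) of the 42 genes of the *scl* class in *scl* cells of 12 hpf with a *pks1* UMI (circles, 189 cells) and without (squares, 368 cells). Bars are exact 95% counting intervals and genes are ordered by the log2 ratio with 5 CPM added, from *Odc1* (CPM ratio 5.81) at the top to *GataC* (0.244) at the bottom.

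The same genes were then read in the clusters made without the 148 genes. In the cluster with *mif4* and *pks1* and in that with high *scl*, *Hox11/13c* was at 5545 and 440 CPM, *Odc1* at 588 and 22.2 CPM, and *Adra1bL_1* at 1352 and 148 CPM. *GataC* was at 132.8 and 3415 CPM, and *Ese* at 351 and 2702 CPM. *Lmo2* (1081 and 1778 CPM) and *Hhex* (1578 and 2312 CPM) were present in both. At least 2-fold higher levels were found for 18 of the 42 genes in the first cluster and for 8 in the second. The shares over all ranked features, or over those of the *scl* class, were not counted for these clusters.

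The share of *scl* cells and the level of the 42 genes within them were then followed over time. Because the genes were chosen for a lower library level at 20 than at 12 hpf, and for a high level in *scl* cells of 12 hpf, a lower level in these cells at 20 hpf is a description that the choice largely fixed. Cells with a *scl* UMI were 3.05%, 20.6%, 19.5%, 13.3%, 10.5% and 7.59% of the cells at 9, 12, 16, 20, 24 and 30 hpf. The median level of the 42 genes within these cells was 69.8, 341, 64.3, 47.5, 27.8 and 23.4 CPM at these times. From 12 to 16 hpf the median log2 ratio of the 42 genes in these cells was -2.19, and from 12 to 20 hpf it was -2.57. Over all ranked features, which were not chosen in this way, the values were -0.13 and -0.40. At 9 hpf, with 123 *scl* cells, the median log2 ratio to 12 hpf was -2.69 for the 42 genes and 0.036 over all ranked features. The make-up of the *scl* cells also differed between times, as the *pks1* cells show next. *Ese* was an exception at 16 hpf, with 1365, 1414 and 533 CPM in *scl* cells of 12, 16 and 20 hpf.

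The cells that carried *pks1* parted from *scl* in the same interval. Of 275 cells with *pks1* at 12 hpf 86.5% (81.9 to 90.3%) also held *scl*, and of 33 at 16 hpf 27.3% (13.3 to 45.5%) did. The later shares were 16.8% of 190 cells (20 hpf), 9.38% of 224 (24 hpf) and 3.38% of 207 (30 hpf). With each cell thinned to 500 UMIs it was 68.4%, 29.0%, 14.4%, 3.12% and 1.49%. The level of *scl* in *pks1* cells was 9137, 2953, 1152, 182 and 31.1 CPM from 12 to 30 hpf.

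The 18 genes that were higher with *pks1* had higher medians in *pks1* than in *scl* cells from 12 to 30 hpf. They were chosen by their levels in cells of 12 hpf, so the difference at 12 hpf was largely fixed by the choice. In cells with a *pks1* UMI their median was 702, 223, 179, 161 and 136 CPM from 12 to 30 hpf. In cells with a *scl* UMI it was 312, 29.7, 21.4, 13.5 and 11.4 CPM at the same times. Against 12 hpf, the median log2 ratio of the 18 genes in *pks1* cells was -1.51 at 16 hpf and -2.04 at 30 hpf. Over all ranked features, which were not chosen in this way, the values in *pks1* cells were -0.22 and -0.42. Cells without *scl*, which from 16 hpf on included most *pks1* cells, were at 38.1, 21.1, 22.8 and 13.02 CPM from 16 to 30 hpf. In cells without *pks1* the median was 15.1, 6.57, 4.84 and 8.01 CPM at these times, below that in *scl* cells. Of the *scl* cells 9, 32, 21 and 7 also held *pks1* at these times. The level in *scl* cells without *pks1* was not read apart there. *Hox11/13c* was at 4600 CPM in *pks1* cells of 12 hpf, then at 2822, 3144, 1974 and 1372 CPM, and in *scl* cells at 1730, 59.3, 72.3, 29.5 and 22.7 CPM. *Odc1* in *pks1* cells was at 472, 118, 165, 188 and 117 CPM, and *Acly_2* at 1347, 446, 842, 605 and 543 CPM. The 16 hpf values rest on few molecules, with 9 UMIs for *Odc1*.

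The other 24 genes of the class were at similar median levels in *scl* and in *pks1* cells. Their median in *scl* cells was 355, 116, 83.0, 68.2 and 56.1 CPM from 12 to 30 hpf, and in *pks1* cells 379, 157, 71.0, 58.5 and 38.0 CPM. In cells without *scl* it was 19.3 to 30.0 CPM over the same times. Single genes of this group differed from its median. *GataC* was at 1708, 489, 226, 209 and 254 CPM in *scl* cells from 12 to 30 hpf. In *pks1* cells it was at 553, 78.7, 9.68 and 11.1 CPM, and at 0 UMIs at 30 hpf, which allows up to 10.4 CPM by the limit of 3 counts. *Hhex* in *scl* cells was at 1497, 821, 613, 551 and 579 CPM. *Lmo2*, by contrast, remained at 181 CPM in *pks1* cells and 225 CPM in *scl* cells at 20 hpf.

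**Figure D4:**
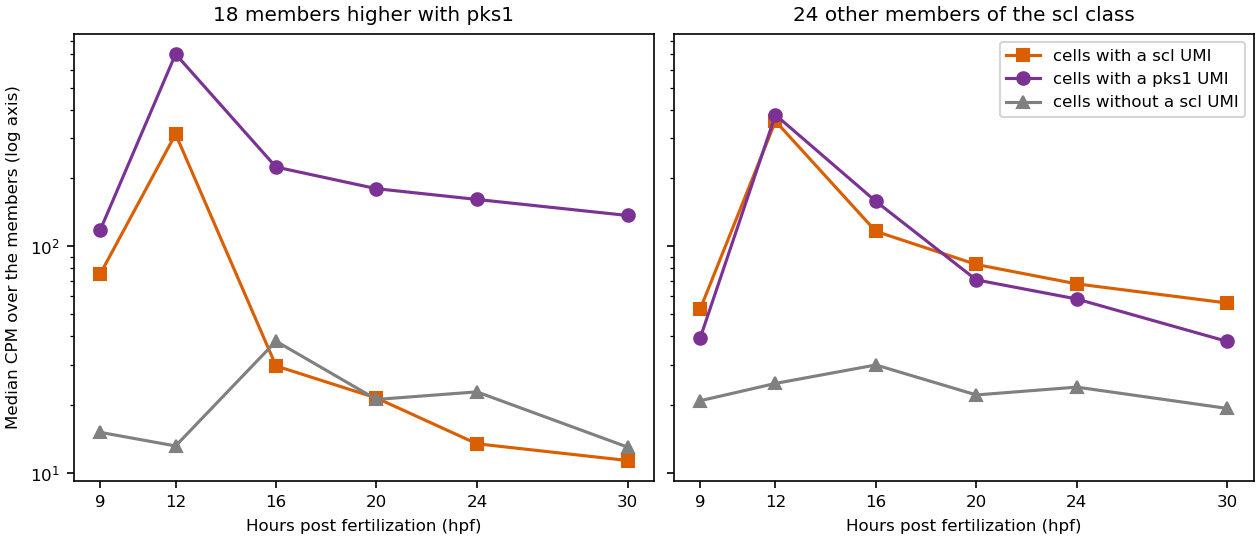
Median level (CPM, log axis) over genes of the *scl* class in cells with a *scl* UMI (squares), with a *pks1* UMI (circles) and without a *scl* UMI (triangles) from 9 to 30 hpf. Left, the 18 genes that were higher with *pks1* at 12 hpf, which are between 136 and 702 CPM in *pks1* cells from 12 hpf on. Right, the other 24 genes, which are at 355 and 379 CPM in *scl* and *pks1* cells at 12 hpf and at 56.1 and 38.0 CPM at 30 hpf.

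Besides *FoxA*, the *foxa* class held 3 genes. *Perld1*, named after a factor of GPI anchor maturation, was at 535 CPM in *foxa* cells and 42.0 in *scl* cells, a ratio of 12.7 (9.22 to 18.01), and its library levels were 11.4, 7.52, 96.4, 55.5, 22.5, 9.43 and 5.76 CPM. *Evi1* was at 987 CPM in *foxa* cells, 159 in *scl* cells and 5.55 and 2.98 CPM in *emx* and *hbn* cells. *Cyp27L* was at 142 CPM in *foxa* cells and 54.6 in *scl* cells. *FoxA* itself was at 3.16, 243, 542, 327, 256, 213 and 55.0 CPM over the 7 libraries. Within all cells with a *foxa* UMI *Perld1* was at 8.55, 390, 218, 79.7 and 9.42 CPM at 9, 12, 16, 20 and 24 hpf. *Evi1* was at 23.4, 843, 245, 188 and 698 CPM there at these times, and *Cyp27L* at 7.44, 142, 49.0, 29.1 and 864 CPM. In cells without *foxa* *Evi1* was at 31.8 CPM at 12 hpf and 302 CPM at 24 hpf, and *Cyp27L* at 37.2 and 245 CPM, so their second peak was seen in and outside *foxa* cells.

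The genes shared by *scl* and *foxa* cells were led by *FoxN2/3*, a forkhead factor used early in vegetal cells of other sea urchins. It was at 766 CPM in *scl* cells, 1207 in *foxa* cells, 27.1 in *emx* cells and 23.1 in *hbn* cells. Over time it had 5.26, 93.6, 378, 91.8, 99.6, 139 and 127 CPM. *Colp4a_2*, named as a collagen, was at 723 and 720 CPM in *scl* and *foxa* cells and at 38.2 and 34.2 in *emx* and *hbn* cells. *Ext1*, which builds heparan sulfate chains, was at 467, 439, 175 and 115 CPM in the 4 classes. The remaining 5 had only an identifier or a name of unsure role, among them HER_17198.t1 with 494 and 564 CPM in *scl* and *foxa* cells, made up the 8.

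On the ectodermal side the 16 genes shared by *emx* and *hbn* cells had medians of 219 and 218 CPM there, against 45.7 CPM in *scl* and 67.2 in *foxa* cells. *Cyp2L42*, a cytochrome P450, had 69941 UMIs at 12 hpf, the most of the 148 genes. It was at 60.0, 1003, 8611, 4172, 2268, 252 and 24.1 CPM from 6 to 30 hpf, and at 12275 CPM in *emx* cells, 13320 in *hbn* cells, 1399 in *scl* cells and 1185 in *foxa* cells. With cells thinned to 500 UMIs it was seen in 91.8% of *emx* and 93.8% of *hbn* cells, and in 13.5% of *scl* and 17.4% of *foxa* cells, at class depths of 1837, 1667.5, 1667 and 1481 UMIs. *Cyp2L41*, a further P450 of the same name series, was at 59.0 and 84.1 CPM in *emx* and *hbn* cells and at 9.46 and 7.85 CPM in *scl* and *foxa* cells. The names mark both as related copies, and how shared reads were divided between them was not tested.

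*Frem2*, a protein of the extracellular matrix under epithelia, was at 3357 CPM in *emx* and 4621 in *hbn* cells, 519 in *scl* and 1396 in *foxa* cells. Its library levels were 143, 991, 2744, 1886, 1296, 748 and 592 CPM. *Cryptic*, named after a co-receptor of Nodal signals in vertebrates, was at 366 and 419 CPM in *emx* and *hbn* cells and 137 and 105 in *scl* and *foxa* cells. *Agmat_1*, an agmatinase, which like Odc1 yields putrescine, was at 110 and 78.2 CPM in *emx* and *hbn* cells and 22.1 CPM in *scl* cells, the class in which *Odc1* was highest. *Hs3st5*, a sulfotransferase of heparan sulfate, was at 246 and 247 CPM in *emx* and *hbn* cells and 52.5 CPM in *scl* cells.

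The *emx* and *hbn* classes each took 1.35% of the 148 genes, beside 0.378% and 0.923% of all ranked features. The call needed a 2-fold higher level than in each other class, so genes that differed only between *emx* and *hbn* cells were not counted. *PlexA4_2*, a plexin, the receptor family for semaphorins, was at 320 CPM in *emx* and 132 in *hbn* cells, a ratio of 2.43 (2.04 to 2.90), and HER_4100.t1 at 86.1 and 39.5 CPM. *Z447*, a zinc finger gene, was at 316 CPM in *hbn* and 59.0 in *emx* cells, a ratio of 5.36 (4.24 to 6.85), and HER_47669.t1 at 125 and 59.7 CPM. These were the only 4 genes called for either class alone.

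Of the 74 genes with broad or graded levels, 10 were named after parts of cilia, a set picked after the values were seen. They had pulses of 0.87 to 1.06. All were lower at 16 than at 12 hpf, as were 141 of the 148 genes and 56.8% of ranked features. Their median log2 ratio of 30 to 12 hpf was -1.64, beside -1.84 for the 148 genes and -0.38 for all ranked features. *Tektin2*, a filament protein of the axoneme, was at 24.4, 186, 382, 149, 129, 91.3 and 115 CPM over time, and at 195 CPM in *scl*, 307 in *foxa*, 488 in *emx* and 463 in *hbn* cells. *Rsp3h*, a radial spoke protein, was at 163, 312, 539 and 570 CPM in the same classes. *Tektin3* was at 101, 210, 393 and 433 CPM. All 10 were lowest in *scl* cells, and the median ratio of *emx* to *scl* cells was 2.59. This was not particular to them. Of the 10 genes 9 were graded, and all 42 graded genes had medians of 119, 165, 220 and 218 CPM in the same classes. The 32 broad genes had medians of 199, 221, 245 and 221 CPM, also lowest in *scl* cells. Of the fuller list of 92 ranked cilium and tubulin features 6 (6.52%) were among the 148 genes, where 3.11% of ranked features were. A pulse above 0 was found for 36 of the 92, against 29.8% of ranked features, and the median of the list was -0.10.

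The 32 broad genes included HER_32545.t1, at rank 6, with 1.40, 102, 469, 207, 69.0, 20.8 and 13.2 CPM over time and 298, 505, 487 and 523 CPM in *scl*, *foxa*, *emx* and *hbn* cells. *Vti1ah*, a SNARE of vesicle fusion, was at 2.28, 239, 688, 308, 163, 123 and 99.7 CPM over time and 579 to 749 CPM in the classes. *Cdc20*, an activator of the anaphase-promoting complex, was at 8.42, 291, 621, 347, 203, 153 and 104 CPM. It was 1 of 2 members on a list of 51 cell cycle features, whose median pulse was -0.31. *Top2b*, a topoisomerase, was at 3.86, 46.2, 202, 199, 96.5, 74.9 and 51.7 CPM, and the splicing factor gene *Pnn* at 304, 685, 1384, 967, 583, 427 and 383 CPM.

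*Thap2* was the name most often repeated. It stood on 5 of the 148 features, all of them broad, with pulses of 0.93 to 1.46. A THAP domain binds DNA and is shared with transposases. Of 12 ranked features with this name 11 had a pulse above 0, which 29.8% of ranked features had. Their median was 0.82, against -0.33 over all ranked features. The name was picked after the values were seen, and the 12 include the 5 that were chosen for a high pulse. The 5 features had 0 to 1.05 CPM at 6 hpf, and 35.7, 73.5, 49.99, 149 and 44.6 CPM at 12 hpf. The features may be near-identical copies, and reads could be split between them. *Utp23h*, named after a factor of ribosomal RNA processing, was on 2 broad features with 116 and 117 CPM at 12 hpf.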

How the data were processed

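The authors deposited, for each of 7 libraries of *He*, the raw UMI counts per feature and cell made with Cell Ranger 3.1.0, without normalization. Seurat 4.0 is also named in the submitters' notes. The genome build is not given in the sources used here. The matrices were analysed in Python 3.11.15 (numpy 2.4.6, scipy 1.17.1). A barcode stayed in as a cell with over 200 and under 4000 genes and under 10000 UMIs. CPM is the UMIs of a feature per 1000000 UMIs, summed over these cells. Each feature was kept apart, and the prefix of the gene names was dropped in the text. Later libraries of the study were not analysed here. The members and lists were chosen with earlier results of these data known.

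A gene was assigned to a class of 12 hpf cells with at least 10 UMIs there and a level at least 2-fold that of each other class, with 5 CPM added. Ranked features gave the background. Doublets were not called, and cells with several markers stayed out of the classes. Clusters without the members were made with scanpy 1.11.5 (2000 variable features, 30 principal components, 15 neighbours, resolution 1). Poisson intervals were used for UMIs, conditional ones for ratios and Clopper-Pearson ones for shares. A count of 0 was read as at most 3 counts. With 1 library per time point no test was made.

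The rule for named genes took the 15 named members of highest rank, the 6 with the largest fold in each class and every member on a list. Other genes named were chosen after their values were seen. Alternatives changed the pseudocount, the minimum of UMIs, the filter on cells, the scaling, the time points, the gating, the fold and the depth. The steps were tested on simulated data. Figures were drawn with matplotlib 3.10.9.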

Additional observations from a re-analysis of the deposited data

How the results depend on the processing

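Of the 148 genes, 108 to 147 remained in the first 150 under the alternative pseudocounts, minimums, cell filters, scaling and depth. With 12 hpf set against the highest of all other 6 time points 89 remained, and with 16 hpf in place of 20 hpf 83 did. In the former case *Evi1* (-0.85) and *Cyp27L* (-2.49) had a negative log2 pulse, set by their levels at 24 hpf, and in both cases *Ese* (-0.0035) and *NotchL_12* (-0.019) did, set by 16 hpf. The *scl* class had 41 to 45 genes under its other alternatives, 36 at 3-fold and 33 of the 149 genes ranked with all other 6 time points. In clusters this class was the cluster with most *scl* alone. With the 148 genes, 36 to 42 of its 42 genes were called again, and the median log2 ratio of 12 to 20 hpf within *scl* cells stayed between 2.27 and 2.69. The small classes depended on the settings. The *foxa* class had 2 genes in clusters and 9 at 1.5-fold. The *emx* class had 0 in clusters, at 3-fold and with all other time points, 1 with cells thinned to 500 UMIs, 1 with a pseudocount of 20 CPM and 1 with cells of several markers kept, which was chosen after seeing the data. The *hbn* class had 1 in clusters, at 3-fold, with a pseudocount of 20 CPM, with all other time points and without the 5% of cells with most UMIs. The cause of these shifts was not tested. No paired analysis was possible because each time point has 1 library. Depth limits the 16 hpf library most: genes of the *scl* class there rest on few UMIs in 95 *scl* cells, and levels under about 5 CPM were not resolved by the pseudocount used.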
